A study of Drosophila melanogaster with 2 samples.

Results

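Regions of intermediate enrichment for the Drosophila melanogaster protein abrupt (ab), which binds DNA through zinc fingers and carries a BTB domain, were examined below the list of reproducible peaks. They came from chromatin immunoprecipitation and sequencing (ChIP-seq) of whole embryos aged 0 to 24 hours, of mixed sex, from a transgenic line that stably carries ab fused at its C-terminus to green fluorescent protein. The tag was precipitated with an antibody against it, in 2 biological replicates that form 1 group, and both replicates carry the fusion. Whole embryos mix all tissues and stages, so a region may reflect few cells with strong binding or many with weak binding, and these cannot be told apart. The values are the authors' region scores, called signal here, and no read counts were used, so read depth is unknown.

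The middle-strength regions were chosen by the pooled signal and by the presence of summits in the replicate lists. A region of the pooled dm6 list was a member when its signal was at least 30 and below that of the weakest reproducible peak (51.82, cut to its first decimal), and a summit lay within 200 bp in the list of each replicate. This gave 2258 members of 21376 pooled regions, or 10.6%. The band lies directly under the list of 1664 reproducible peaks, and no member belonged to that list. Of all 2968 regions in the band, 76.1% were members. The other 710 lacked a summit in 1 or both replicates, of which 196 were matched in replicate 1 alone, 498 in replicate 2 alone and 16 in neither. Members took pooled ranks 1669 to 4636. The pooled list is deposited as peaks and background, and the replicate lists are long, with 29996 regions in replicate 1 and 30000 in replicate 2. A matched summit can therefore be of low rank. The median rank of the summits matched to members was 3596 in replicate 1 and 4494 in replicate 2.

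ChIP-seq of a transcription factor gives a continuous range of enrichment, and a reproducibility cut divides that range at a chosen level. Strong summits of insect factors often stand just upstream of transcription start sites (TSSs), while weaker enrichment also appears in open chromatin and along transcribed genes. Many proteins with a BTB domain form dimers and recruit chromatin regulators. In Drosophila, ab is known for setting the dendrite shape of sensory neurons and for the precise connection of motor axons to muscles.

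Words of 6 letters (6-mers) that were more frequent at member summits than beside them, described further on, stood together in some promoters. The sequences below, 50 bases to each side of a summit, hold 6 (Ptpmeg) or 5 (the others) of the 10 leading words. They are shown because they hold these words side by side or overlapping. They are not the full set with so many words: 4 members held 6 and 10 held 5, and those on 1 of the 6 arms or with an annotated UTR base in the window were left out, with at most 1 member per gene and ties taken by pooled signal. They are the plus strand of dm6, 5′ to 3′, taken from the RefSeq assembly Release 6 plus ISO1 MT. Capitals mark the leading words, on either strand. Some of the words share letters, so a single stretch of capitals can hold several of them.
Ptpmeg (chr3L:347178-347278): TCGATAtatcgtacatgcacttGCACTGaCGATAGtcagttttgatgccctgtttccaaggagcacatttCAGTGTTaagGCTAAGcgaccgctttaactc
Top2 (chr2L:19453498-19453598): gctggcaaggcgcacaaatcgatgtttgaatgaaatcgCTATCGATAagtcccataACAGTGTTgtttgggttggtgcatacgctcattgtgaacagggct
Atx2 (chr3R:15408300-15408400): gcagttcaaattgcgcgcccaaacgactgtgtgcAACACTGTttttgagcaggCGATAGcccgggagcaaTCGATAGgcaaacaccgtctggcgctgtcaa
dlp (chr3L:14632429-14632529): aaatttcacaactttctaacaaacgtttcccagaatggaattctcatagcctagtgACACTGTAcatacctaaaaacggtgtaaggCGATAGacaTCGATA
NSD (chr3R:27937874-27937974): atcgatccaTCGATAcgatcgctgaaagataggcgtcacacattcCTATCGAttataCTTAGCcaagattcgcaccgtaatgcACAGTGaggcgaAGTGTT
Hers (chrX:19875334-19875434): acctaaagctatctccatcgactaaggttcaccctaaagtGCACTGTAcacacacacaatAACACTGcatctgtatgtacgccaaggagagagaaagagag

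All 6 summits lay in promoters, on the upstream side of the nearest protein-coding TSS. The summit at Top2, which encodes a DNA topoisomerase, stood 58 bp upstream and had a pooled signal of 50.2, with 23.5 in replicate 1 and 23.3 in replicate 2. That at Ptpmeg, a tyrosine phosphatase gene, stood 231 bp upstream with 43.3 pooled, 17.3 in replicate 1 and 28.3 in replicate 2. The summit at Atx2, which encodes a regulator of translation, lay 73 bp upstream and had 43.5, 17.9 and 25.7 in the same order. By score the replicates were nearly equal at Top2, and replicate 2 was higher at Ptpmeg and Atx2. By rank, replicate 1 first, Top2 stood at 1822 and 3323, Ptpmeg at 2964 and 2136, and Atx2 at 2806 and 2646. The member shown at dlp, a glypican gene, had 41.8 pooled, 23.4 in replicate 1 and 32.0 in replicate 2. The member at NSD, a histone methyltransferase gene, had 38.4 pooled, with 33.5 in replicate 1 and 11.98 in replicate 2, the reverse order of replicates. Hers had 32.1 pooled, 18.5 in replicate 1 and 15.9 in replicate 2.

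Signal of the members ran from 30 to 51.77 in the pool, with a median of 37.2 (interquartile range 33.0 to 43.3). In replicate 1 it ran from 6.33 over a median of 15.5 to 146.6, and in replicate 2 from 7.50 over a median of 20.3 to 85.3. The pooled values were fixed by the choice of regions, and the replicate values are limited by it, so all are given as a description. The authors' −log10 q-values of members lay between 0.838 and 2.83, and 1441 members (63.8%) had a q-value of 0.05 or less. None reached the ceiling of 3.385, which 1213 reproducible peaks shared. Every member was 510 bp wide.

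The 5 strongest members lay nearest to Ncoa6, a nuclear receptor coactivator (51.77), tara (51.76), CG14286 and CG43218 (51.71 each) and CG13097 (51.65). The 5 weakest lay nearest to Ars2, which acts in small RNA pathways, Usp15-31 and CG4928 (30 each, as rounded), and CG14629 and dally, a glypican gene (30.01 each). Directly above the band stood 4 pooled regions outside the reproducible list, nearest to bin, sw, siz and CG31650 (51.81 for sw and siz, 51.82 for CG31650), and then the weakest reproducible peak, nearest to ex (51.82). Directly under it, stood regions nearest to CG11052, tal-1A, fz, CG12507 and FoxL1 (29.99, and 30 as rounded for CG11052). Values ran on across both limits without a gap, and the weakest reproducible peak had replicate signals of 20.1 and 33.0, inside the range of the members.

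The replicates gave individual members unequal scores. The score in replicate 2 was the higher by a median of 0.37 on the log2 scale, with an SD over members of 0.92, or 1.89-fold. The spread was similar at the 1590 reproducible peaks matched in both replicates (SD 0.88, or 1.84-fold), with a median of 0.048. Signals lay within 2-fold of each other at 1494 members (66.2%), against 77.9% of those reproducible peaks. The replicate 2 score was over 2-fold higher at 604 members (26.8%) and that of replicate 1 at 160 (7.09%). Scores were called separately in each replicate, on a scale that is not stated, so this offset alone does not show a difference in binding. By rank the order was the reverse, with a median of 3596 in replicate 1 and 4494 in replicate 2. The rank correlation of the replicate signals over members was -0.26 (Pearson's r of log2 values -0.23, n = 2258), and the points share the pooled band that chose them. Among the 1664 strongest regions of replicate 1 were 280 members, among those of replicate 2 were 237, and 24 stood in both. The remaining 1765 stood in neither, and their matched summits lay further down the lists of 29996 (replicate 1) and 30000 regions (replicate 2).

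**Figure D1:**
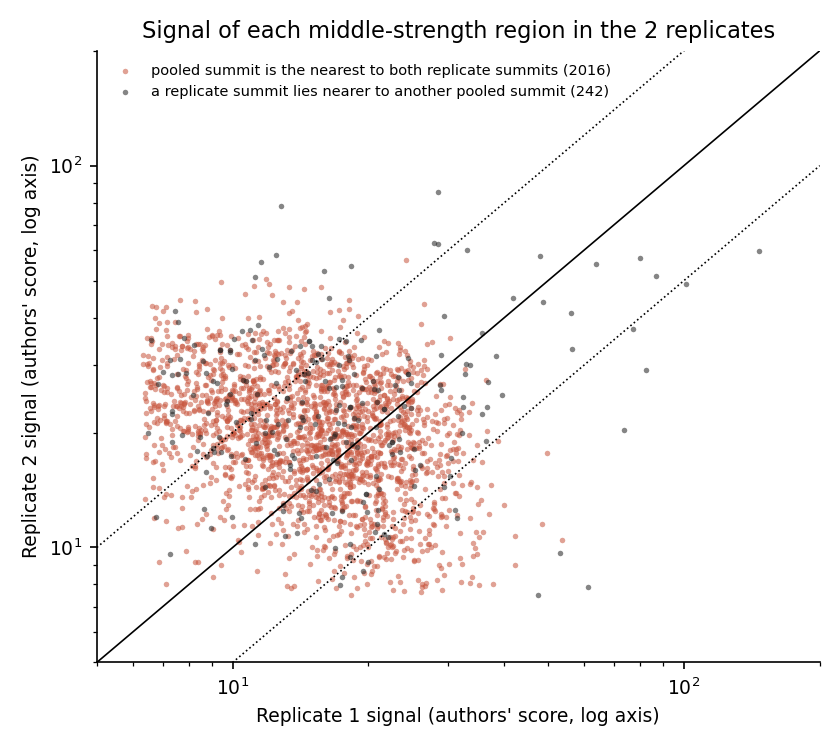
Each point is 1 of the 2258 middle-strength regions, with its signal in replicate 1 on the x axis and in replicate 2 on the y axis, both the authors' score on log axes; the solid line marks equal signals and the dotted lines a 2-fold difference. Most points (1494) lie between the dotted lines, 604 lie above and 160 below them, and the points farthest to the right are regions whose matched summit is nearer to another pooled summit (black).

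The highest replicate signals belonged to members beside a stronger peak. The 8 members highest in replicate 1, from 63.7 at CG34417 to 146.6 at CG32772, all lay 200 to 207 bp from the summit of a reproducible peak, and for all 8 the matched replicate 1 summit was nearer to another pooled summit than to the member. Among the 8 highest in replicate 2, from 58.03 at CG10543 to 85.3 at COX7AL2, the distance was 199 to 211 bp and the same held for 7. Over all members, 242 (10.7%) had a matched summit nearer to another pooled summit. Of the 2016 others, replicate 1 signals ran from 6.33 over 15.4 to 53.7 and replicate 2 signals from 7.50 over 20.1 to 56.5. Among these, a set taken after the values were seen, the highest in replicate 1 were nearest to CG43245 (53.7, with 10.4 in replicate 2) and Tlk, a kinase gene (49.7, with 17.7 in replicate 2), 199 and 432 bp from a reproducible summit. The highest in replicate 2 were nearest to CG13631 (56.5, with 24.2 in replicate 1) and Eip75B (50.5, with 11.8 in replicate 1), 201 and 200 bp from a reproducible summit, so these 4 also stood beside a stronger peak. The next in each replicate lay far from one. The gene vir, which encodes a component of the RNA methyltransferase complex, had 48.4 in replicate 1 and 11.5 in replicate 2 (chr2R:23366331-23366840, promoter, 10500 bp from a reproducible summit). MFS3, a transporter gene, had 9.41 in replicate 1 and 49.5 in replicate 2 (chr2L:1142579-1143088, promoter, 23392 bp from one). Most members stood apart from the reproducible peaks: 2049 (90.7%) had no reproducible summit within 1000 bp, and the median distance to one was 15990 bp. Another member lay within 1000 bp of 242 (10.7%). Unmatched band regions and regions under the band were not counted as neighbours.

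Promoters held the largest share of members but a smaller one than of the reproducible peaks. A promoter was taken as 500 bp on either side of the TSS of any gene. Of the members 1039 (46.01%, 95% Wilson interval 44.0 to 48.1%) had a summit in a promoter, against 941 of 1664 reproducible peaks (56.6%, 54.2 to 58.9%). The difference was -10.5 percentage points (two-sided Fisher's exact test, adjusted exact p = 5.6e-10 over 7 classes). Promoters make up 13.6% of the bases of these arms, so the members' share was 3.40 times the share of bases.

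Introns, intergenic sequence and coding sequence took larger shares among members. Introns held 797 members (35.3%) against 511 reproducible peaks (30.7%, adjusted exact p = 0.00451), and intergenic sequence 323 (14.3%) against 178 (10.7%, adjusted exact p = 0.00194). Coding sequence held 49 members (2.17%) against 3 reproducible peaks (0.180%), a ratio of 12.04 (adjusted exact p = 1.8e-08), although it makes up 13.7% of the bases. Shares in 5′ UTRs (0.487% against 0.541%), 3′ UTRs (0.753% against 0.541%) and other exons (0.974% against 0.781%) missed the threshold (adjusted exact p = 0.824, 0.709 and 0.709). Against reproducible peaks under their median signal, 2 of the 7 classes passed in place of 4, and with promoters of 200 bp 2 did.

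The strongest of the 49 coding members lay nearest to the TSS of SNF4Agamma, which encodes a subunit of the AMP-activated kinase (46.5 pooled, 21.6 in replicate 1, 23.01 in replicate 2). The next lay in coding sequence nearest to CG34268 (41.6 pooled, 30.7 and 21.0) and to Klp98A, a kinesin gene (39.99 pooled, 8.96 and 15.3). The coding members were weak within the band: their median signals were 11.8 in replicate 1 and 17.3 in replicate 2, against 15.5 and 20.3 over all members. None of the 49 was over 2-fold higher in replicate 1, and 13 were over 2-fold higher in replicate 2.

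Band regions without both matches had more promoter summits than the members, though their pooled signals span the same band. Promoters held 46.01% of members and 390 of the 710 unmatched regions (54.9%, 51.3 to 58.6%), a difference of -8.92 percentage points (adjusted exact p = 2.5e-04). Introns (35.3% against 30.3%, adjusted exact p = 0.0315) and intergenic sequence (14.3% against 10.4%, adjusted exact p = 0.0276) were higher in members, and 5′ UTRs lower (0.487% against 1.41%, adjusted exact p = 0.0315). The promoter difference lay in the lower part of the band. From 30 to 40 it was 43.1% against 56.3% (adjusted exact p = 1.5e-06), and from 40 up it was 50.6% against 50.6% (adjusted exact p = 1). It also missed the threshold with promoters of 200 bp (33.7% against 36.5%, adjusted exact p = 0.406).

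**Figure D2:**
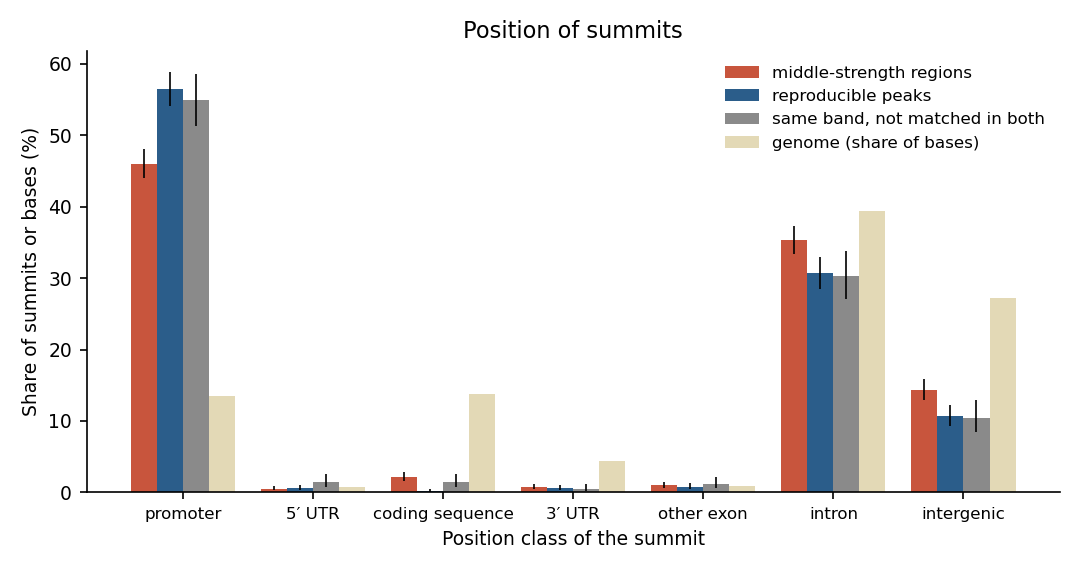
Bars give the share of summits in each position class for the middle-strength regions, the reproducible peaks and the unmatched regions of the same band, with 95% Wilson intervals, and the share of bases in the genome; the y axis is in percent. Middle-strength regions have 46.01% of summits in promoters, below both other sets, and exceed both in introns and intergenic sequence.

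Near a TSS the members stood mostly upstream. Of those within 500 bp of the nearest protein-coding TSS, 709 lay upstream and 269 downstream, so 72.5% were upstream (69.6 to 75.2%, two-sided exact binomial test, p = 2.5e-46). Reproducible peaks had 737 upstream and 144 downstream, or 83.7%, a higher share (Fisher's exact test, p = 7.6e-09). Unmatched band regions had 222 and 145, or 60.5%, a lower share than the members (Fisher's exact test, p = 2.9e-05). The median summit lay 61 bp upstream in members, 85 bp in reproducible peaks and 28 bp in unmatched regions. Far from genes, 468 members (20.7%) lay over 5 kb from the nearest protein-coding TSS, against 254 reproducible peaks (15.3%), a pair of shares that was not tested.

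**Figure D3:**
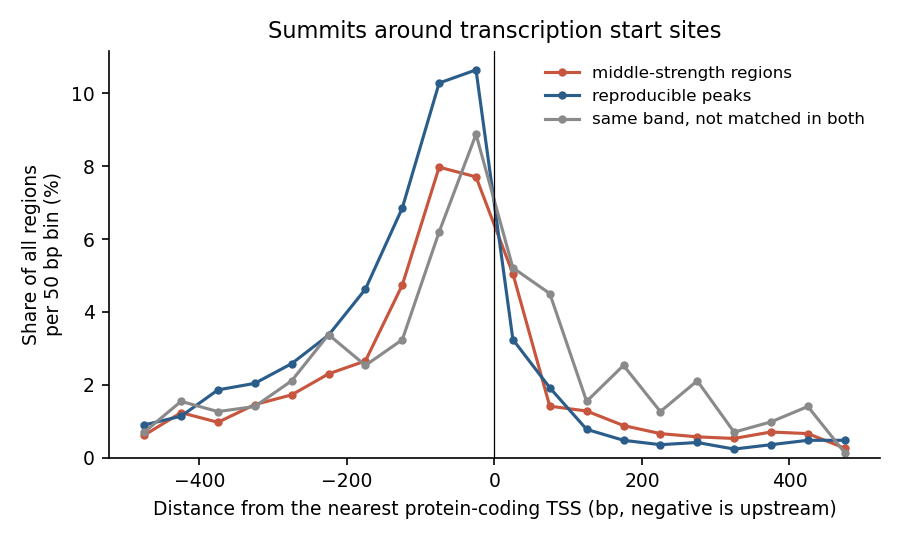
Lines give the share of all regions of each set whose summit falls in a 50 bp bin around the nearest protein-coding TSS, with distance in bp on the x axis and negative values upstream. Middle-strength regions reach 7.97% of the set in the bin centred 75 bp upstream, where reproducible peaks reach 10.3% and unmatched regions 6.20%, and fall to 1.42% in the bin centred 75 bp downstream.

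The members formed a step in a gradual change along pooled signal. Among regions matched in both replicates, the promoter share was 22.99% at signals under 20 and 29.5% from 20 to 30. It was 43.1% in the lower part of the band (30 to 40) and 50.6% in the upper part (40 up), then 54.9% and 59.3% in the weaker and stronger groups of reproducible peaks. Coding sequence ran the other way, at 17.8%, 12.1%, 3.39%, 0.230%, 0.129% and 0.123% over the same 6 groups, so nearly all coding members stood in the lower part of the band. The upstream share near a TSS was 55.6%, 62.9%, 67.8%, 78.7%, 80.5% and 86.2%. G and C made up 46.04%, 44.1%, 41.6%, 39.8%, 38.5% and 37.3% of the bases within 50 bp of the summit. The share of pooled regions matched in both replicates ran from 17.2% under 20 to 97.8% in the strongest group, with 71.9% and 83.8% inside the band. These groups were ordered by the value that chose the members and are a description.

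**Figure D4:**
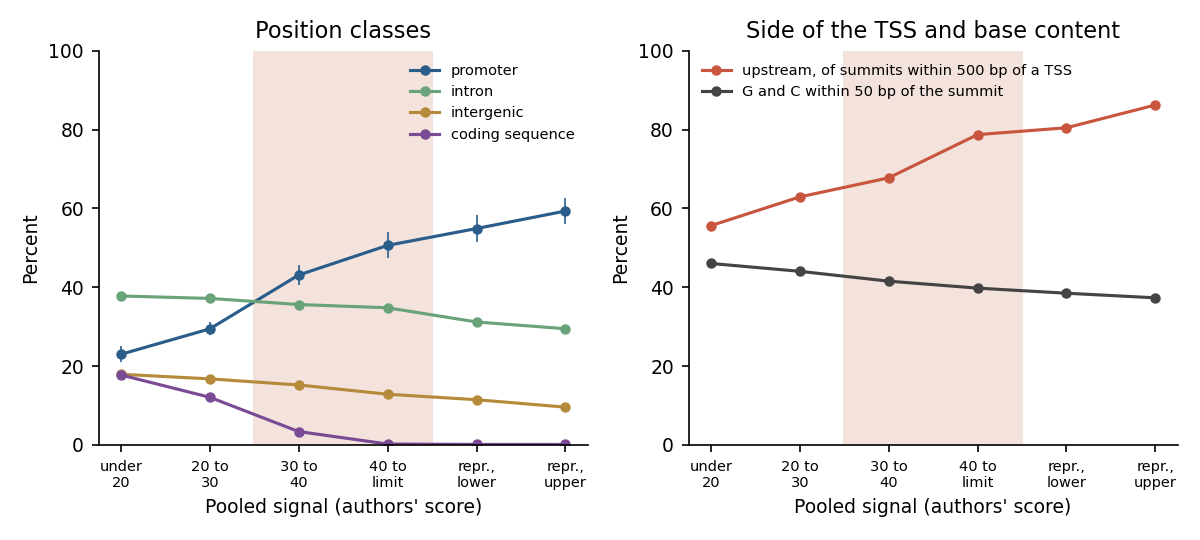
Points give percentages over pooled regions matched in both replicates, in 6 groups of rising pooled signal on the x axis, the last pair being reproducible peaks under and over their median; bars on the promoter share are 95% Wilson intervals, and the shaded groups are the middle-strength regions. The promoter and upstream shares are higher in each stronger group, the coding share and the G and C content lower.

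The chromosome arms shared members much as they shared reproducible peaks. None of the 6 arms differed in Fisher's exact test (adjusted exact p = 0.449 to 0.803, and 0 at an unadjusted p under 0.05). Arm 2L held 18.6% of members and 20.7% of reproducible peaks, the widest gap, and arm 3R 25.1% and 23.1%. The small chromosome 4 held 10 members and 6 reproducible peaks.

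Words of 6 letters were compared between the bases within 50 bp of each member summit and a window of the same length centred 300 bp away, alternating sides, on both strands. Of 2080 words 80 (3.85%) were more frequent at the summit and 58 (2.79%) less frequent (exact McNemar test, two-sided, adjusted p under 0.05). At the reproducible peaks the same comparison gave 306 words higher (14.7%) and 376 lower (18.1%). Unmatched band regions gave 0 higher and 0 lower (0% each), with 69 and 44 at an unadjusted p under 0.05, over fewer regions. Of the words higher at members, 59 were also higher at reproducible peaks, which is 73.8% of the members' words and 19.3% of those of the reproducible peaks.

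Words around the letters CACTG led the list. ACAGTG, whose reverse complement is CACTGT, occurred at 227 member summits (10.1%) against 111 flanks (4.92%), a ratio of 2.05 (adjusted exact p = 3.1e-08). ACACTG occurred at 200 summits (8.86%) against 91 flanks (4.03%), a ratio of 2.20 (adjusted exact p = 4.3e-08), and CAGTGC at 213 (9.43%) against 111 (4.92%, adjusted exact p = 1.9e-06). At reproducible peaks the ratios of these words were 2.35, 2.22 and 1.93. ACTGTA, which overlaps ACAGTG when read on the other strand, stood at 6.78% of member summits against 3.01% of flanks (adjusted exact p = 3.2e-06). The letters CACTG, picked out after the words were seen, occurred at 634 member summits (28.1%) against 17.1% of flanks. In reproducible peaks this was 29.9% against 16.8%, and in unmatched regions 26.9% against 16.8%.

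Words with the letters TATCG formed a second group. The word CGATAG occurred at 153 member summits (6.78%) against 69 flanks (3.06%), a ratio of 2.22 (adjusted exact p = 3.2e-06), and TATCGA at 182 (8.06%) against 97 (4.30%, adjusted exact p = 3.4e-05). Outside promoters neither passed (adjusted exact p = 0.728 and 0.965). Among the other leading words were AACACT (8.73% against 4.83%, adjusted exact p = 3.4e-05), AGGGTA (4.52% against 1.86%, adjusted exact p = 9.6e-05) and TGTAAA (11.7% against 7.26%, adjusted exact p = 1.2e-04). CTTAGC occurred at 98 member summits (4.34%) against 39 flanks (1.73%, adjusted exact p = 6.7e-05), and at 3.13% of reproducible summits against 2.46% of their flanks, which did not pass (adjusted exact p = 0.453). That difference between the sets was not tested. At least 1 of the 10 leading words stood at 1124 member summits (49.8%), in 30.3% of member flanks and at 50.4% of reproducible summits. The flank value is the base level for that count, and the words were chosen on these summits.

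Base content differed between summits and flanks as well. Members averaged 40.9% G and C (SD over regions 9.61, n = 2258) at the summit and 43.2% in flanks, reproducible peaks 38.1% and 44.4%. Words higher at members held on average 1.94 G or C letters of 6, and words lower 3.95. How far base content accounts for the word counts was not tested. At promoters, where members had 42.2% at the summit and 42.7% in flanks, 8 words were higher and 0 lower, ACAGTG and CGATAG among those that passed.

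Of 11 fixed motifs, 2 were more frequent at member summits than in flanks. The DNA replication-related element (DRE), TATCGATA, is the site of the factor DREF and is common in promoters of growth and housekeeping genes. It occurred at 47 member summits (2.08%) against 7 flanks (0.310%), a ratio of 6.71 (adjusted exact p = 2.5e-07), and at 1.86% of reproducible summits (adjusted exact p = 0.789 for members against reproducible peaks). Of these 47 members 41 lay in promoters. They included ATPsynE (50.7 pooled, 22.6 in replicate 1, 21.6 in replicate 2), a subunit gene of the mitochondrial ATP synthase, Top2, shown above, and RpL27 (49.9 pooled, 16.0 and 33.2), a ribosomal protein gene. Over all 13945 protein-coding genes the element stands in 8.92% of the windows from 250 bp before to 50 bp after the gene start, and in 10.6% of those that hold a member summit. TATCGATA contains TATCGA, so these counts overlap with the words above.

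The Zelda core, CAGGTA, which is bound by the factor that opens chromatin in the early embryo, occurred at 70 member summits (3.10%) against 38 flanks (1.68%, adjusted exact p = 0.0148). This call was not stable: with flanks centred at 500 bp the difference was 0.44 percentage points (adjusted exact p = 0.591), and in 50 bp bins the matches per 1000 members were 17.7 just after the summit and 15.1 at 375 bp. At reproducible peaks the core stood at 1.98% of summits. The GAGA element, GAGAGA, stood at 5.31% of summits and 5.31% of flanks. The other motifs were the Ohler motif 1 core GGTCACAC (1.20% against 0.531%, adjusted exact p = 0.0736), the E-box CACGTG, the Grainyhead core AACCGG, the AP-1 site TGACTCA, the Pho core GCCAT, the TEAD core CATTCC, the Stat92E site TTCNNNGAA and the TATA box TATAAA, and none passed at members. Between the sets 1 motif differed: the TATA box stood at 11.96% of member summits and 15.8% of reproducible summits (Fisher's exact test, adjusted exact p = 0.0063), and this missed the threshold outside promoters (adjusted exact p = 0.312).

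**Figure D5:**
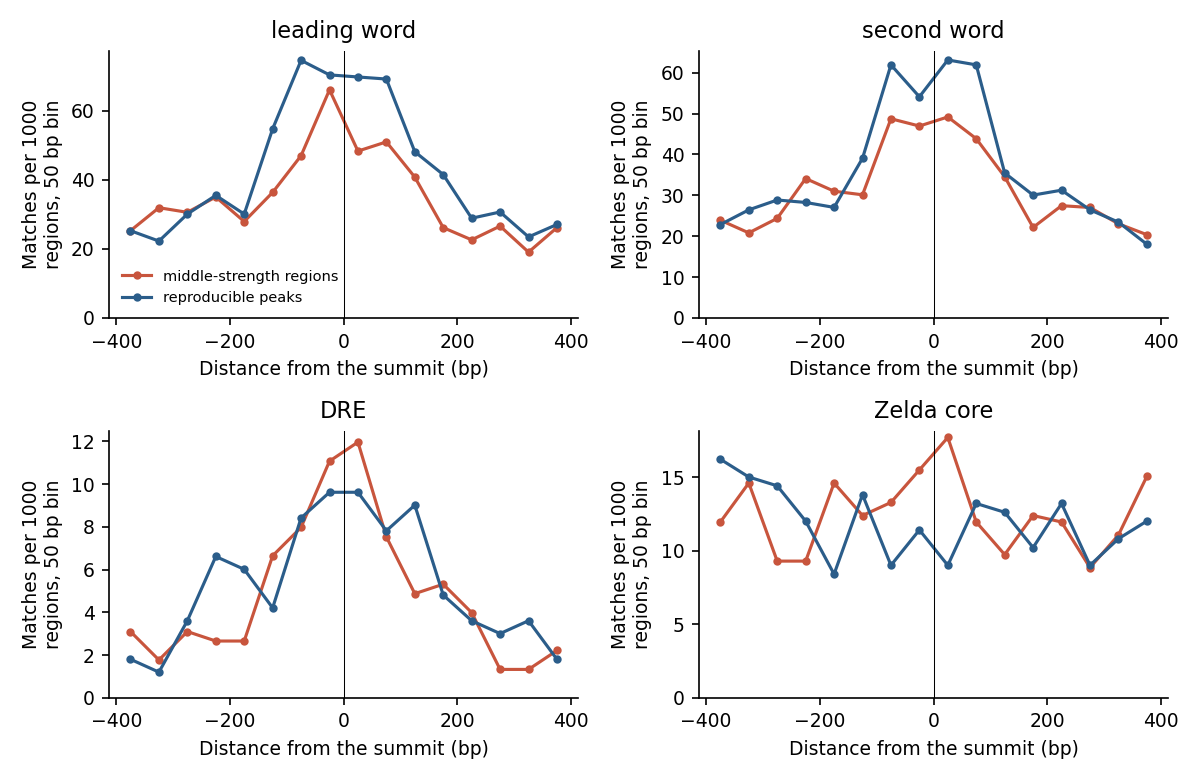
Lines give matches per 1000 regions in 50 bp bins around the summit for the leading word (top left), the second word (top right), the DRE (bottom left) and the Zelda core (bottom right), in the middle-strength regions and the reproducible peaks, with distance from the summit in bp on the x axis. The leading word reaches 66.0 matches per 1000 middle-strength regions in the bin before the summit, against 25.2 in the bin centred 375 bp before it, and the DRE reaches 11.96, while the Zelda core shows no comparable rise at reproducible peaks.

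A member was counted for a gene where its summit fell between 1 kb before the gene and 1 kb after it, so 1 region can count for several genes. Of 13945 protein-coding genes 2254 (16.2%) had a member, and 433 had 2 or more. Of the genes with a member, 1708 (75.8%) had no reproducible peak and 546 had one. These 546 are 24.2% of genes with a member and 29.6% of genes with a reproducible peak. Over all protein-coding genes 13.2% had a reproducible peak and 16.2% a member. By the nearest TSS alone, 1725 genes (12.4%) had a member. Genes with a member were longer, with a median of 6598 bp including the margins against 3956 bp for genes without one, and length was not corrected in the counts that follow.

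The genes with most members were mostly long. Eip75B, a nuclear receptor gene of the ecdysone response (chr3L:17950953-18064696), and shn, a zinc-finger factor of Dpp signalling (chr2R:11159086-11217394), had 9 each, beside 2 and 4 reproducible peaks. The adhesion gene kirre had 8 over 396.1 kb and CG1677 had 7. Another 7 genes had 6 each, among them RhoGAP19D, SKIP, Fim, CG5445, CG46467 and Glut4EF. Fim, which encodes fimbrin, and CG5445 overlap on X and share their strongest member (47.2 pooled, 17.2 in replicate 1, 32.7 in replicate 2), 880 bp downstream of a TSS of Fim, and neither had a reproducible peak. CG46467 and Glut4EF likewise overlap. Per 100 kb Fim had 32.9 members, shn 14.9, Eip75B 7.78 and kirre 2.02.

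The ab gene itself (chr2L:11210678-11261080) had 4 members, 3 reproducible peaks, 3 unmatched band regions and 19 weaker regions. The reproducible peaks with 102.8 and 53.05 pooled had no replicate 1 summit within 200 bp. Their nearest one, with a signal of 10.3, lay 274 and 505 bp away. The strongest member stood 1 bp upstream of its TSS (chr2L:11210422-11210931), with 40.9 pooled, 11.2 in replicate 1 and 48.3 in replicate 2. The 3 intronic members had 34.9 (22.6 in replicate 1, 18.9 in replicate 2), 31.5 (8.16 and 18.3) and 30.8 (7.14 and 25.5). Replicate 2 was the higher at 3 of the 4.

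Among genes of protein synthesis and breakdown, cytosolic ribosomal proteins had a member at 23 of 92 genes (25%, against 16.2% of all protein-coding genes). Of these 23 genes, 19 had no reproducible peak, and 75.8% of all genes with a member had none. In the whole list 32 genes (34.8%) had a reproducible peak, against 13.2% of all protein-coding genes. Single values after gene names here and in the next paragraphs are the pooled signal of the gene's strongest member. At some genes it lies nearest to the TSS of another, such as Nep1 for raptor, CG43192 for arr, BEAF-32 for kn, Polr1D for brat and RecQ5 for dlp. At others it stands beside a reproducible summit, such as arr and nkd (201 bp), Hr4 (203 bp), Stat92E (214 bp) and N (230 bp). At Stat92E, nkd and NetA both matched replicate summits lie nearer to another pooled summit. RpS26 had its summit 15 bp upstream of the TSS, with 51.4 pooled, 14.6 in replicate 1 and 38.4 in replicate 2. RpS5a had 51.3 pooled, 24.7 in replicate 1 and 30.7 in replicate 2, and the member at RpS15, nearest to the TSS of CG4927, had 50.4, 37.3 and 14.6. Mitochondrial ribosomal proteins had one at 11 of 73 genes (15.1%), led by mRpL27 (47.4), whose member lies nearest to the TSS of RpL27A, mRpS31 (45.2) and mRpL42 (44.9). Proteasome subunits had 6 of 48 (12.5%), led by Rpn6 (43.3), Rpn11 (43.1) and Prosalpha4 (42.5), and translation factors 6 of 24 (25%), led by eRF1 (49.96), eIF4A (44.2) and eRF3 (40.1).

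Among regulators of transcription and chromatin, BTB factors, the family of ab, had a member at 10 of 16 genes (62.5%) by the gene's territory and at 10 by the nearest TSS, and their median length with margins was 45.6 kb. psq had 49.1 pooled, 27.6 in replicate 1 and 18.6 in replicate 2, 77 bp upstream of a TSS. Trl, which encodes the GAGA factor, had 47.6 pooled, 6.73 in replicate 1 and 40 in replicate 2, 211 bp from a reproducible summit, and ken had 45.8, 12.5 and 30.3. Polycomb and Trithorax genes had 7 of 25 (28.0%), led by trx (48.0), Trl and skd (44.1), and insulator proteins 3 of 16, namely Trl, Cp190 (44.3) and BEAF-32 (30.9). Hox genes and cofactors had 5 of 13 (38.5%), led by Ubx (46.9), hth (45.6) and Abd-B (38.9). The ecdysone pathway had 7 of 23 (30.4%), led by Eip78C (51.7), Hr4 (49.2) and Eip75B (47.6).

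Signalling pathways ranged from 26.3% to 52.6% of genes with a member, against 16.2% of all protein-coding genes. Their median lengths with margins ran from 7.26 kb (Notch) to 16.7 kb (epithelial polarity), against 4166 bp for all genes. Reproducible peaks stood at 21.1% (Notch) to 50% (Dpp) of the genes in these lists, against 13.2% of all protein-coding genes. Genes of the Hippo pathway, which restrains growth, had 10 of 19 (52.6%). kibra, which encodes an upstream activator, had 4 members, the strongest with 47.6 pooled, 11.1 in replicate 1 and 21.1 in replicate 2, dco had 47.3 pooled, and sd, the pathway's DNA-binding factor, 41.1. Dpp genes had 9 of 18 (50%), led by sog (49.8), shn (49.3) and the receptor gene tkv (39.1). Ras-MAPK genes had 11 of 25 (44.0%), led by dos (49.2), the ligand gene vn (48.9) and RasGAP1 (46.9), and insulin and TOR genes 8 of 20 (40%), led by raptor (49.8), InR (48.2) and REPTOR (42.6). The Wingless pathway had 7 of 20 (35.0%), led by arr, a co-receptor gene (50.95), the receptor gene fz2 (46.7) and the ligand gene Wnt4 (44.4). Epithelial polarity genes had 5 of 15 (33.3%), led by baz (47.3), dlg1 (44.6) and aPKC (42.6), JAK-STAT genes 3 of 10 (30%), namely Ptp61F (37.1), Socs36E (33.6) and Stat92E (30.2), and Notch genes 5 of 19 (26.3%), led by mam (46.1), N (43.5) and neur (43.3).

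Among genes of neurons, muscle and body pattern, axon guidance genes had 17 of 35 (48.6%), led by NetA (49.2), Ptp10D (47.6) and dlp (46.9). This member at dlp and the one shown earlier were matched to the same replicate 1 summit (signal 23.4, rank 1829). Dendrite factors had 7 of 16 (43.8%), led by ct (49.3), kn (48.2) and fru (42.4). ct, a homeodomain factor, had 24.1 in replicate 1 and 29.0 in replicate 2, and no reproducible peak. Muscle and tendon genes had 12 of 33 (36.4%), led by mbc (50.8), kirre (48.5) and Mef2 (46.6). Neural precursor genes had 5 of 29 (17.2%), led by D (48.4), brat (44.3) and pros (41.2), and segmentation genes 4 of 28 (14.3%), led by ptc (47.7), cic (45.3) and nkd (32.5), or 10 of 28 by the nearest TSS. Odorant and gustatory receptors had 1 of 119 (0.840%), at Or46a, and cuticle and Osiris genes 1 of 95 (1.05%), at Cpr73D, whose member lies nearest to the TSS of Ogdh. By the nearest TSS the receptors had 5 (4.20%) and the cuticle genes 1 (1.05%), against 12.4% of all protein-coding genes. The median length with margins was 3.44 kb for receptors and 3.33 kb for cuticle genes, beside 3.33 kb for the cytosolic ribosomal proteins, of which 25% had a member. How far gene length accounts for these counts was not tested. Over the 24 lists 19 stood above the share of all genes, and 19 had a longer median than all genes (4166 bp); these shares carry no test.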

How the data were processed

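ChIP-seq of ab-eGFP embryos was analysed from region lists of 2 replicates and their pool. Per the deposited description files, each list was made from the alignments of the sample or samples and a control, and the reproducible list came from the irreproducible discovery rate (IDR) procedure applied to them. Sonicated chromatin was 200 to 800 bp long, per the labels. Aligner, peak caller and thresholds are not given in the sources used here. Signal as deposited is the authors' score of a region, on a scale that the files do not state, and the deposited −log10 q-values reach a ceiling, so only the signal was used to choose regions. Ranked by signal, the top of the pooled list and the reproducible list hold identical regions. Signal columns were called separately in each replicate, so replicate values stand side by side with no SD at single regions.

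The members and the gene lists were chosen with earlier results of these data known. Positions are dm6, 1-based, on the 6 major arms. Summits took the first of 7 classes that applied (promoter, then 5′ UTR, then coding sequence, 3′ UTR, remaining exons, introns, intergenic sequence), from Ensembl release 115 (BDGP6.54) without transposable elements. Of 842 listed symbols 831 matched a protein-coding gene, 8 through an older name. Fisher's exact tests compared region sets and exact McNemar tests compared summits with flanks, with Benjamini-Hochberg adjustment over classes, arms, motifs or words at a threshold of 0.05. Tests count regions of 1 pooled experiment, not animals, and intervals cover counting error over regions only. Named were the genes nearest to members at both ends of the band and just outside it, those nearest to the 8 members highest in each replicate, the 10 genes with most members, the 3 genes of each list with the strongest member, ab and the 10 leading words. The coding members, the members with a DRE, and the 3 members highest in each replicate among those nearest to both summits were named after their values were seen. Calculations used Python 3.11.15, numpy 2.4.6, pandas 2.3.3 and scipy 1.17.1, and the tests and the summit matching were tested on simulated data. Alternatives were other promoter widths, summit distances, parts of the band, comparison sets, motif windows and flanks, gene assignments and the dm3 lists. Summits within 50 bp, members nearest to both replicate summits and TSSs of any gene were alternatives chosen after seeing the data.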

Additional observations from a re-analysis of the deposited data

How the results depend on the processing

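The promoter share against reproducible peaks and the upstream share near a TSS kept their direction and their side of the threshold under every alternative run for them, and no arm differed under any. The count of members was 2244 on dm3 and 871 with summits within 50 bp. The promoter difference against unmatched band regions was 0.0362 percentage points from signal 40 up, -3.74 with summits within 100 bp (adjusted exact p = 0.0818), -5.45 within 50 bp (0.129) and -2.82 with promoters of 200 bp (0.406). Position classes that passed numbered 4 in the main comparison, 1 from signal 40 up, and 2 each with summits within 50 bp, promoters of 200 bp or reproducible peaks under their median. Words higher at summits numbered 38 to 113 with a summit required in 1 replicate alone, 13 from 40 up, 17 from 30 to 40, 25 within 50 bp, 214 with windows of 100 bp on either side and 8 at promoters. Fixed motifs differing from flanks numbered 1 to 2 with 1 replicate alone, 4 with windows of 100 bp or without neighbours within 1000 bp, 0 outside promoters, and 1 with summits within 100 or 50 bp, in either part of the band, at promoters, or for members nearest to both replicate summits. Fixed motifs differing from reproducible peaks numbered 0 with summits within 100 or 50 bp, from 30 to 40, with windows of 100 bp and outside promoters. The DRE lost its call outside promoters alone (adjusted exact p = 0.339). Fewer regions enter the parts of the band, the promoter groups and the 50 bp setting, and other causes were not tested. Counts over gene lists stayed between 141 and 176 genes. Unknown read depth limits what the absence of a matched summit shows. No paired analysis was possible because there is 1 group.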
